A study of Mus musculus with 20 samples.

Results

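Cohesin, followed here through its RAD21 subunit, was mapped by ChIP-seq in mouse embryonic stem cells (mESCs) before and after loss of CTCF and of the zinc finger protein MAZ. Described here are 2924 RAD21 peaks of CTCF-depleted cells (ΔCTCF) that lay inside genes and had neither a RAD21 peak in untreated cells (WT) nor a MAZ peak in ΔCTCF cells beneath them. They were selected on the peak calls themselves: a peak of the ΔCTCF RAD21 list that shared no base with any WT RAD21 peak or any ΔCTCF MAZ peak, with its summit more than 1 kb from every annotated transcript start and inside a gene. They made up 16.3% of the 17912 RAD21 peaks of ΔCTCF cells, of which 10019 were re-localized, that is, absent from WT, and 8245 were re-localized without MAZ. Of these last peaks, 3076 were intergenic and 2245 lay at promoters. The 1 kb limit left peaks such as those in 1300014J16Rik and Zfp65 just inside, with summits 1003 and 1007 bp from a start, and peaks in Igf2bp2 and Zfp704 just outside, both at 993 bp.

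All cells carried CTCF fused to an auxin-inducible degron, so that adding auxin removes the protein. WT cells were untreated, ΔCTCF cells received auxin for 2 days, ΔMAZ cells were 1 clone (B2) with the Maz gene knocked out and no auxin, and ΔCTCF/ΔMAZ cells were the same clone with auxin for 2 days. The peak lists analysed, 12 in all, cover CTCF, MAZ and RAD21 in each of these 4 conditions, with 1 list per antibody and condition. RAD21 was assayed in 1 biological replicate, so no difference between conditions has a replicate check and intervals cover counting error over peaks only. In the lists, CTCF peaks numbered 26394 in WT and 2381 in ΔCTCF, and MAZ peaks numbered 6265 in WT and 33 in ΔMAZ.

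Cohesin is a ring-shaped complex that extrudes DNA into loops until it meets a barrier, of which CTCF bound to DNA in the right orientation is the best known. RNA polymerase can push cohesin along genes, and in cells without CTCF and the unloading factor WAPL it collects where transcription ends, in particular between genes that converge. MAZ is a zinc finger protein that binds GC-rich sites, mostly at promoters, and the study asked if cohesin's place on chromatin also depends on proteins besides CTCF and MAZ.

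The sequences at the summits of the strongest peaks show what kind of DNA this is. Each line gives the summit base and 100 bases to either side, from the plus strand of mm10, and capitals mark any of the 14 short motif strings searched on either strand (listed further on). The first set holds the 3 strongest peaks that were not called in ΔCTCF/ΔMAZ cells.
A830018L16Rik, chr1:11501573-11501773: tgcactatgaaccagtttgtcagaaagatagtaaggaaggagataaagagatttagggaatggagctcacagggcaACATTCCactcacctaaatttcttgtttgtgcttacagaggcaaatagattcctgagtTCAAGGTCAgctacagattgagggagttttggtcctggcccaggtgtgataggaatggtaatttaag
Gm29514, chr1:146426930-146427130: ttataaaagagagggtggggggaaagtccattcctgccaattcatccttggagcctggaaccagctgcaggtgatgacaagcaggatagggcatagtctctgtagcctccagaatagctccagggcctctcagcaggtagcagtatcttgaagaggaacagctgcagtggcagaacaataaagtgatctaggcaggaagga
1300014J16Rik, chr12:80116766-80116966: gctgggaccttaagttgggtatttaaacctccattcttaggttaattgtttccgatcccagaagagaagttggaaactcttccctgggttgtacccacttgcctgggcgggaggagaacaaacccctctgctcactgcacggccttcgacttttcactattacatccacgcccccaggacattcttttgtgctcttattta
The second set holds the 3 strongest peaks that were called there.
Car8, chr4:8154445-8154645: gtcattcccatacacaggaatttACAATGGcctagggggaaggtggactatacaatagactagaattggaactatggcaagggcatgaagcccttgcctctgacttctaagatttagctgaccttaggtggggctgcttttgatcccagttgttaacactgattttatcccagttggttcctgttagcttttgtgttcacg
Pdgfrl, chr8:40963234-40963434: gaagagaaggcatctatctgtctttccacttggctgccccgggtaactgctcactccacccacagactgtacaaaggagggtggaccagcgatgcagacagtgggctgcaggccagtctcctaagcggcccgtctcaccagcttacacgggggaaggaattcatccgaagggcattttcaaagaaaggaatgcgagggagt
Fgfr2, chr7:132179176-132179376: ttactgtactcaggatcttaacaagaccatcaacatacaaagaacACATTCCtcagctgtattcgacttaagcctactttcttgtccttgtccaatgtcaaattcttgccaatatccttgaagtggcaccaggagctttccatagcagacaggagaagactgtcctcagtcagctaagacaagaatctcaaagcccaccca
The third set, picked after the motif counts were seen, holds the 3 strongest peaks with the KLF4 string and the peak in Esrrb.
CT486005.1, chr17:43148176-43148376: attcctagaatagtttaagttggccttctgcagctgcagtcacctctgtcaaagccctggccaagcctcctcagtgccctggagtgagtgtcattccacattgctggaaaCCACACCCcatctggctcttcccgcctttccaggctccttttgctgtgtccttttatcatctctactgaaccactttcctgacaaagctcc
Myo1e, chr9:70209776-70209976: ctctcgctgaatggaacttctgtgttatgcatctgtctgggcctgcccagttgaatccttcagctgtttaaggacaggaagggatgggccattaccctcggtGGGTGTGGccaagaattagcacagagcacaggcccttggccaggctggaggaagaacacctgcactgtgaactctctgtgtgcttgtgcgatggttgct
Gm26561, chr17:70915525-70915725: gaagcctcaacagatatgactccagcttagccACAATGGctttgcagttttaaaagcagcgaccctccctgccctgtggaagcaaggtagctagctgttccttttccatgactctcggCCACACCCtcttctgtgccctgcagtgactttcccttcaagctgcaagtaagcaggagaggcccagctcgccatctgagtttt
Esrrb, chr12:86471035-86471235: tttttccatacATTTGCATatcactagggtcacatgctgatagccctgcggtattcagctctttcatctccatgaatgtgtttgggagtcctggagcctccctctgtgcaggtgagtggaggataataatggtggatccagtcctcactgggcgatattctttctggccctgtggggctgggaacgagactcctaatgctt
A830018L16Rik held an ESRRB string and a TEAD string, Car8 a SOX2 string and Fgfr2 a TEAD string. Gm29514, 1300014J16Rik and Pdgfrl held none of the 14 strings. In CT486005.1, Myo1e and Gm26561 the KLF4 string began within 18 bp of the summit.

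These gene-body peaks were weak. Fold enrichment is the height of the read pileup at the summit over the local background, with a pseudocount (a small constant) added to both. It had a median of 4.29 with quartiles of 3.81 and 4.95, and ranged from 1.94 to 12.1. At the median summit 19 fragments overlapped, and the median −log10 q was 5.44. Intergenic peaks re-localized without MAZ had a median fold enrichment of 4.32 and gene-body peaks re-localized with MAZ one of 4.53, while retained gene-body peaks, those also called in WT, had 6.59. The members with the lowest −log10 q, in Ncoa7 and Susd1, had a value of 1.302, at the limit of peak calling. The selection used this list, so these strengths are a description.

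**Figure D1:**
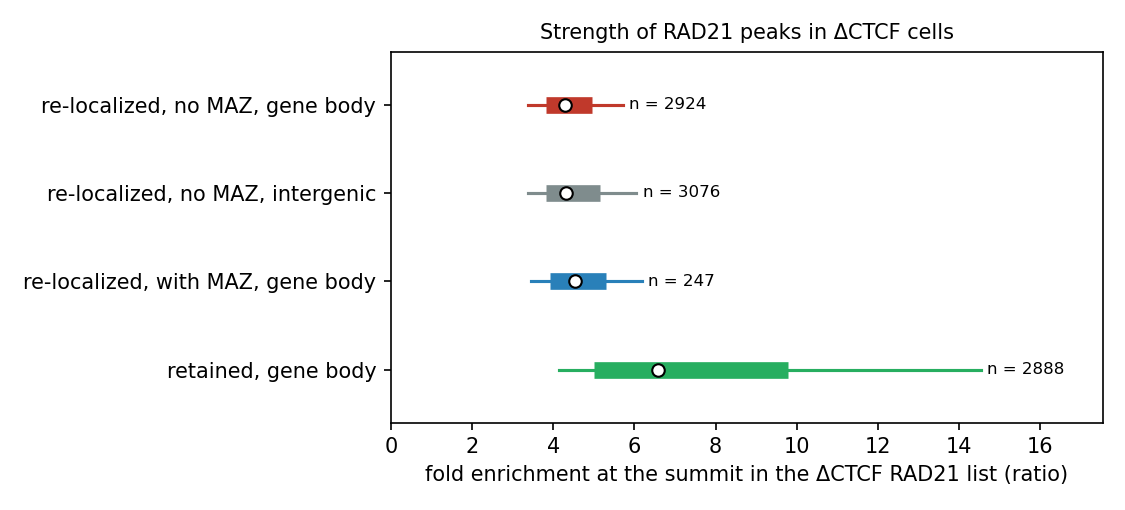
Fold enrichment (x axis, ratio of pileup to local background, a pseudocount added to both) of RAD21 peaks in the ΔCTCF list, by class. White points are medians, thick bars quartiles and thin lines the 10th to 90th percentiles. The 3 re-localized classes have medians between 4.29 and 4.53, and the retained gene-body peaks have a median of 6.59.

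Of the 10 strongest members, 8 lay in introns and the other two in exons of noncoding genes. In Car8, which encodes a carbonic anhydrase relative without catalytic activity, a peak at chr4:8153817-8155291 had a fold enrichment of 12.1 in ΔCTCF, 5.02 in ΔMAZ and 5.49 in the ΔCTCF/ΔMAZ list, with no call in WT. The intronic peak of A830018L16Rik (chr1:11501455-11502037) had 11.9 in ΔCTCF and 6.56 in ΔMAZ and was not called in ΔCTCF/ΔMAZ. These members therefore already had a call in ΔMAZ cells, where CTCF was present.

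Others were called in ΔCTCF cells alone. The peak in an intron of the antisense gene Gm29514 (chr1:146426697-146427311) had a fold enrichment of 9.53, that in a noncoding exon of the lincRNA 1300014J16Rik (chr12:80116671-80117111) had 8.81, and that in an intron of the lincRNA Gm6116 (chr5:74952965-74953411) had 8.36. None of these 3 had a call in WT, ΔMAZ or ΔCTCF/ΔMAZ. Gm18269, a processed pseudogene, likewise held a peak of 8.10 (chr17:21375196-21376004) with no call in any other RAD21 list.

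Some were called again in cells lacking both proteins. Library depth differed 2.34-fold between ΔCTCF and ΔCTCF/ΔMAZ and enters fold enrichment, so values across lists are not a like-for-like measure of signal. In Pdgfrl, which encodes a protein related to the PDGF receptors, the intronic peak (chr8:40963089-40963649) had a fold enrichment of 9.53 in ΔCTCF and 10.53 in ΔCTCF/ΔMAZ. In Reep3, an endoplasmic reticulum shaping protein, the values were 8.22 in ΔCTCF, 6.49 in ΔMAZ and 8.23 in the ΔCTCF/ΔMAZ list (chr10:67083541-67084233). In Rnf220, a ubiquitin ligase, they were 7.80, 5.24 and 6.68 (chr4:117380500-117380962).

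The peak assigned to Fgfr2 (chr7:132178965-132179488) had 9.05 in ΔCTCF and 6.41 in ΔCTCF/ΔMAZ. Defb22, a beta-defensin gene, held the only one of the 10 strongest members that overlapped a WT CTCF peak, with 8.34 in ΔCTCF, 11.6 in ΔMAZ and no call in ΔCTCF/ΔMAZ (chr2:152487060-152487399). Its fold enrichment was higher in ΔMAZ than in the list that selected it.

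Few members were called again in ΔCTCF/ΔMAZ cells. Of the 2924, 231 (7.90%, 95% Wilson interval 6.98–8.93) overlapped a RAD21 peak there, against 29.5% of all ΔCTCF RAD21 peaks. In ΔMAZ cells 260 (8.89%, 7.91–9.98) were called, against 47.4% of all. Both shares of all peaks include peaks also called in WT, which the selection left out. Retained gene-body peaks were called in ΔMAZ in 94.5% of cases. Intergenic peaks re-localized without MAZ were called there in 10.1%, and gene-body peaks re-localized with MAZ in 18.6%. Both lists held 53 of the members, ΔMAZ alone 207, ΔCTCF/ΔMAZ alone 178, and 2486 (85.0%) were called in ΔCTCF only. Where a member was called again, the peaks were close: summits lay a median of 69 bp apart in ΔCTCF/ΔMAZ and 54.5 bp apart in ΔMAZ. The peaks in ΔCTCF/ΔMAZ had fold enrichments of 3.36 to 10.53 with a median of 5.39, at percentile 26.2 of that list.

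The share called again rose with strength. In the 5 equal strength groups of the ΔCTCF list, 3.87% of 904 members in the lowest group, 5.15% of 874, 10.7% of 689 and 16.0% of 431 in the next 3, and 8 of 26 (30.8%, 16.5–50.0) in the highest were called in ΔCTCF/ΔMAZ. Intergenic peaks re-localized without MAZ gave 2.84%, 5.70%, 9.39%, 16.3% and 48.1% in the same groups. Without regard to strength, the members' share was 0.81 percentage points below that of the intergenic peaks (−2.21 to 0.59), and with strength groups held the Mantel-Haenszel odds ratio was 1.03 (0.85–1.25). Both intervals include no difference, and members inside genes could not be told apart from intergenic ones at this count.

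Gene-body peaks with MAZ beneath them in ΔCTCF cells differed. Of those 247 peaks, 50 (20.2%) were called in ΔCTCF/ΔMAZ, so the share of members was 12.3 percentage points lower (7.69 to 17.9 lower), with an odds ratio of 0.39 (0.28–0.56) within strength groups. Retained gene-body peaks were called in 49.4% of cases, and the odds ratio against them was 0.34 (0.28–0.41). Members were thus called in ΔCTCF/ΔMAZ less often than MAZ-bound gene-body peaks of like strength.

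Library depth moved with this count. The lowest background in each list put the depth of the ΔCTCF RAD21 library at 2.34 times that of ΔCTCF/ΔMAZ, with ratios of 2.18 to WT and 1.69 to ΔMAZ. With each member's summit pileup thinned to the ΔCTCF/ΔMAZ depth, 1574 members (53.8%) would be expected to pass the lowest −log10 p of that list and 703 (24.0%) its 5th percentile, where 231 were called. At WT depth 1841 (63.0%) and 446 (15.3%) would be expected to pass, and the rest could have gone uncalled in WT at its depth. This expectation takes each deposited pileup as the true level, with no allowance for peaks having been selected as high in one library, and how much of the difference that choice makes was not tested. By strength group the expected shares were 28.2%, 49.6%, 69.1%, 89.3% and 99.2%, above the observed share in every group.

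**Figure D2:**
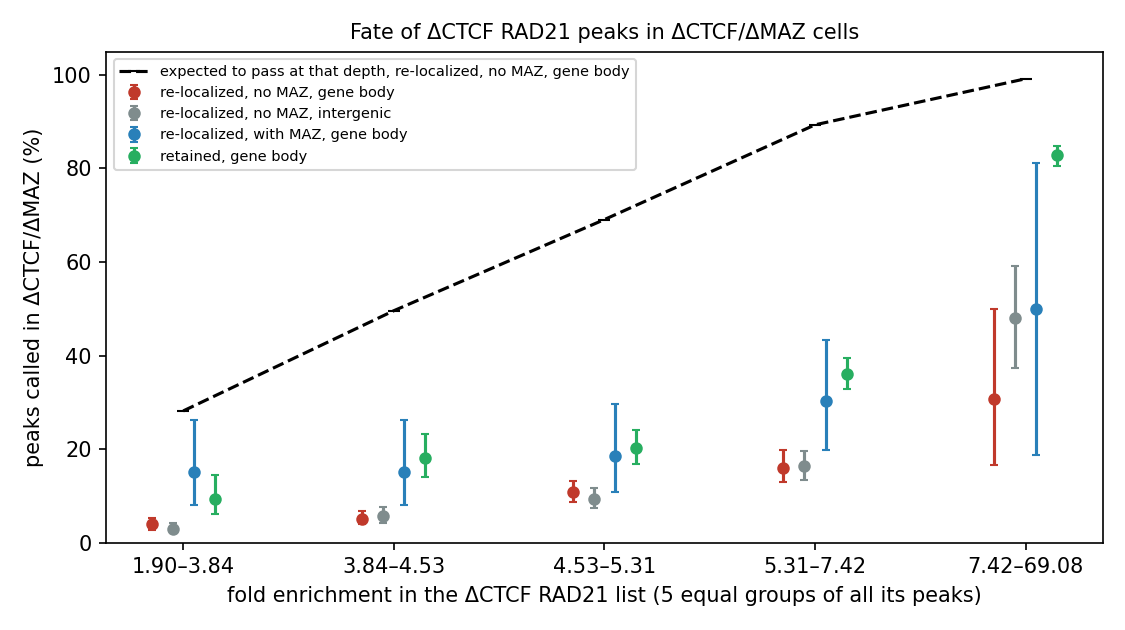
Share of ΔCTCF RAD21 peaks that overlap a ΔCTCF/ΔMAZ RAD21 peak (y axis, percent) by fold enrichment in ΔCTCF (x axis, 5 equal groups of all 17912 peaks); points are shares with 95% Wilson intervals, and the dashed line is the share of members expected to pass the lowest limit at the lower depth. Members rise from 3.87% to 30.8% and lie below the dashed line, which rises from 28.2% to 99.2%.

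Other proteins were rarely called at these peaks. A WT CTCF peak overlapped 84 members (2.87%, 2.33–3.54), against 41.1% of all ΔCTCF RAD21 peaks. A ΔCTCF CTCF peak overlapped 16 (0.55%), against 11.9% of all. A WT MAZ peak overlapped 85 (2.91%, 2.36–3.58), against 11.1% of all. The ΔMAZ and ΔCTCF/ΔMAZ MAZ lists overlapped 0, but they hold only 33 peaks each. The absence of WT RAD21 and of ΔCTCF MAZ was part of the selection, and these shares are tied to it. The WT MAZ share was 1.02 percentage points above that of intergenic peaks chosen in the same way (0.25–1.82).

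Along the gene, members were spread through introns with more at both ends. The summit was in an intron for 2562 (87.6%, 86.4–88.8), where 93.3% of the gene-body bases more than 1 kb from a start (the bases a member could occupy) are intronic. Coding exons held 149 (5.10%, against 2.61% of bases), 3′ UTRs 131 (4.48% against 2.68%), exons of noncoding transcripts 75 (2.56% against 1.35%) and 5′ UTRs 7. With each host gene divided into 10 equal segments, the last held 406 members (13.9%, 12.7–15.2) where 10.4% of the bases lay, a ratio of 1.34. The first segment held 304 (10.4%, 9.34–11.6) where 7.86% of the bases more than 1 kb from a start lay, a ratio of 1.32. The segments between had ratios of 0.82 to 1.06.

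**Figure D3:**
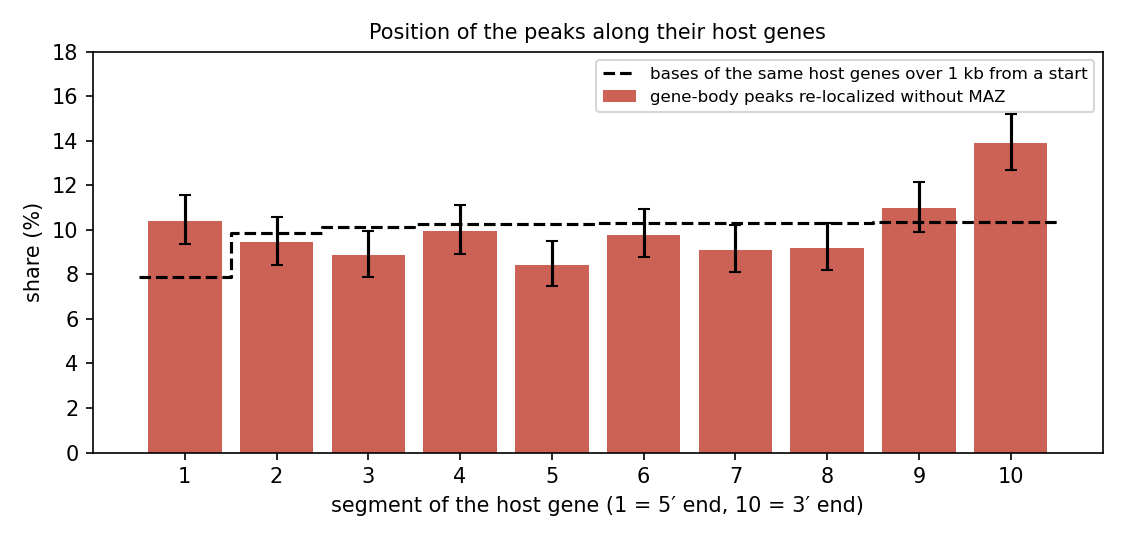
Share of the 2924 members (bars, percent, with 95% Wilson intervals) in each of 10 equal segments of the host gene from the 5′ end (1) to the 3′ end (10); the dashed line is the share of the same genes' bases more than 1 kb from a transcript start. The last segment holds 13.9% of members against 10.4% of bases, and the first 10.4% against 7.86%.

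Transcript 3′ ends lay close to 255 members. These were the members within 1 kb of a 3′ end (8.72%, 7.75–9.80), where 4.83% of eligible bases lie. Within 500 bp there were 144 (4.92% against 2.58% of bases) and within 2500 bp 516 (17.6% against 11.2%). Retained gene-body peaks were within 1 kb in 9.14% of cases, which left a difference of −0.42 points (−1.89 to 1.05). RAD21 gene-body peaks lost on CTCF depletion were there in 7.42%, 1.302 points below the members (0.12–2.55). The ratio in the last segment was 1.47 for retained and 1.36 for lost peaks, close to the members' 1.34. In the first segment retained and lost peaks had ratios of 1.03 and 0.90, against the members' 1.32. Gene-body peaks re-localized with MAZ had a first-segment ratio of 1.88 (32 of 247 peaks), so the 5′ excess was not particular to members. Of these MAZ-bound peaks 8.91% lay within 1 kb of a 3′ end, and their last-segment ratio was 1.24. More peaks than bases lay at the 3′ end in each of these classes.

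Around the annotated ends of protein-coding genes, the density of re-localized peaks without MAZ (members and intergenic peaks together) was highest in the 1 kb past the end, at 6.27 peaks per Mb. It was 5.15 in the last 1 kb of the gene, 4.77 between 1 and 2 kb past it, and 2.38 to 3.72 between 10 and 3 kb before the end. Farther past the end it was uneven and reached 4.85 between 8 and 9 kb.

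**Figure D4:**
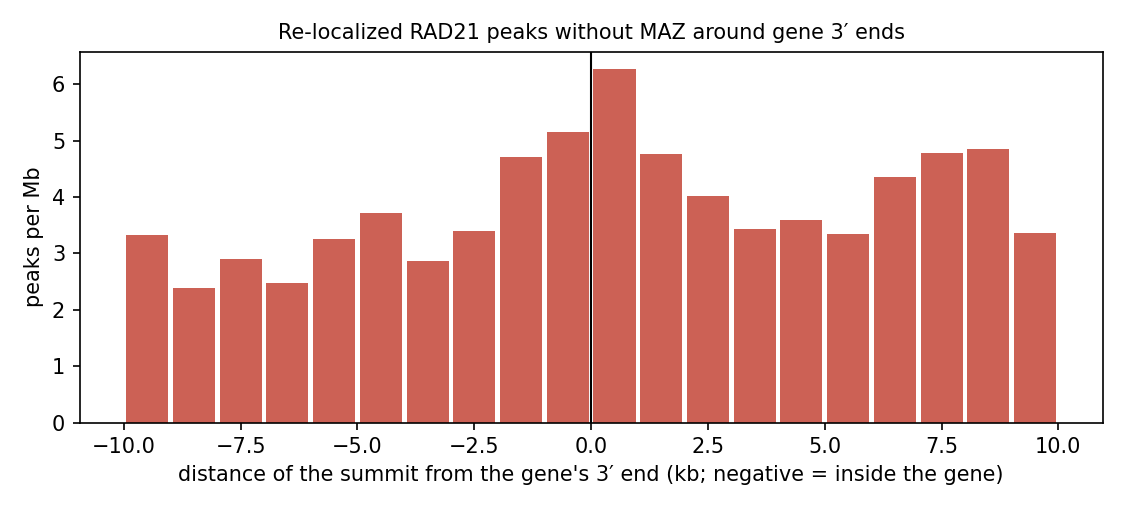
Density of RAD21 peaks re-localized without MAZ (y axis, peaks per Mb of sequence more than 1 kb from a start) by distance of the summit from the nearest protein-coding gene's 3′ end (x axis, kb, negative inside the gene). The bar just past the end is the tallest at 6.27 peaks per Mb.

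Among the 3′ members, the 3 strongest in protein-coding genes were intronic and lay near the end of a transcript, away from the end of the whole gene. Whether that transcript belonged to the host was not checked. In Adrb3, the beta-3 adrenergic receptor gene, the summit was 100 bp from a transcript end, with fold enrichments of 7.62 in ΔCTCF, 3.86 in ΔMAZ and 5.49 in the ΔCTCF/ΔMAZ list (chr8:27240251-27241381). In Kazn, which encodes the junction protein kazrin, it was 745 bp away, with 7.18, 6.53 and 4.12 (chr4:142138187-142138755). In Epn2, an endocytic adaptor gene, it was 707 bp away, with 6.91 in ΔCTCF and 4.63 in ΔMAZ (chr11:61529182-61529521). At the 3′ end of Fgf4, a growth factor gene of the pluripotent epiblast, a peak in the 3′ UTR had 6.54 in ΔCTCF (chr7:144863806-144864838) and no call in the other 3 lists.

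The 3′ members fared like the others. In ΔCTCF/ΔMAZ 22 of the 255 (8.63%, 5.77–12.7) were called, against 7.83% of the rest, a difference of 0.80 points (−2.26 to 4.997). Hosts with a member within 2500 bp of their own 3′ end had a next downstream protein-coding gene on the opposite strand in 134 of 206 cases (65.0%, 58.3–71.2), against 52.7% (50.2–55.3) of the other protein-coding hosts and 48.3% of all protein-coding genes. Such a convergent neighbour lay within 10 kb in 41.3% (34.8–48.1), against 26.7% (24.5–29.1) of the other hosts and 28.7% of all. Hosts of retained or lost peaks near a 3′ end were not compared, so the excess cannot be called particular to members.

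The members lay in 2001 host genes. Protein-coding genes held 2490 (85.2%) and lincRNA genes 295, and 1490 hosts held a single member. Of the 19923 protein-coding genes with sequence more than 1 kb from a start and outside any longer protein-coding gene, 1687 (8.47%) hosted one. Long genes hosted more often: 1.67% of genes with under 10 kb of such sequence, 5.30% of those with 10 to 30 kb and 43.1% of those with over 300 kb. Per Mb of gene body the order was the reverse, from 4.18 members in the shortest genes to 1.70 in the longest, with 2.57 overall. A gene with a RAD21 peak in WT held 65.6% of members. The share of eligible bases in such genes was not computed, so this figure has no background beside it. Of the members, 45.0% (43.2–46.8) lay within 20 kb of a WT RAD21 summit, against 26.5% of eligible bases. Members were spread over every autosome and were fewest on X, where they made 13 of 169 ΔCTCF RAD21 peaks (7.69%). Another member lay within 10 kb of 644 (22.0%).

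The 7 hosts with 8 or more members were 186 kb or longer. Etl4, a 901 kb gene, held 10, with fold enrichments of 3.28 to 7.56, of which 7 were called in ΔMAZ and 2 in ΔCTCF/ΔMAZ. Arid5b, a DNA-binding chromatin regulator, held 9 in 186 kb, with 2.60 to 6.13, and 1 was called in ΔMAZ and 0 in ΔCTCF/ΔMAZ. Tshz2, a zinc finger homeobox gene, also held 9, and 0 of them were called in either list. Of all members, 8.89% were called in ΔMAZ and 7.90% in ΔCTCF/ΔMAZ. Counts of 0 or 1 in a host with 7 to 9 members are near those shares.

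Macf1, a microtubule and actin cross-linker, and Fam189a1 held 8 each, with 1 each called in ΔCTCF/ΔMAZ. A further 5 hosts held 7 each, among them Zmynd8, a chromatin reader gene, with 0 called in either list. Another of these 5, Lncenc1, a long noncoding RNA gene active in naive mESCs, held its 7 in 62.0 kb, or 12.1 per 100 kb, and the 2 called in ΔCTCF/ΔMAZ lay at 92.2% and 96.8% of its length. The strongest of these had a fold enrichment of 6.90 in ΔCTCF and 8.34 in ΔCTCF/ΔMAZ. Fgfr2 and Gm20388 held 9 each, but their annotated spans of 2961 and 4435 kb run across many other genes. With the shortest gene taken as host in place of the longest, protein-coding genes still before others, 87 members changed host, the Fgfr2 peaks fell partly to Gpr26, Cpxm2, Chst15 and Fam53b, and hosts numbered 2023.

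Members were denser in pluripotency transcription factor genes than over all gene bodies. Of 22 such genes, 9 (40.9%, 23.3–61.3, against 8.47% of all protein-coding genes) hosted 16 members, a density of 22.3 per Mb of gene body, against 2.57 overall. WT RAD21 peaks were also denser in these genes, at 13.97 per Mb of gene body against 8.03 overall. Esrrb, an orphan nuclear receptor of naive pluripotency, held 3 members, the strongest with fold enrichments of 5.61 in ΔCTCF, 5.14 in ΔMAZ and 4.39 in the ΔCTCF/ΔMAZ list, over a WT MAZ peak.

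Tcf7l1, a repressor in the WNT pathway, held 3 with 4.41 to 5.17, and Sall4, a zinc finger factor, 3 with 3.46 to 4.70. Tbx3 held 2, and the other hosts, among them Pou5f1 (which encodes OCT4), Klf4 and Stat3, held 1 each. Pou5f1's, in a coding exon 417 bp from a transcript end, had 4.67 in ΔCTCF only. Of the 16 members, 1 was called in ΔCTCF/ΔMAZ, near the 7.90% of all members.

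Members also lay in genes of LIF, FGF and WNT signalling, pathways that bear on whether mESCs self-renew or differentiate. In that list 10 of 28 genes (35.7%, 20.7–54.2, against 8.47% of all protein-coding genes) hosted 24 members (19 with the shortest host). Their median length was 57.8 kb, and 11.9% of genes with 30 to 100 kb of eligible sequence hosted a member. The list had 5.53 members per Mb of gene body, against 2.57 over all gene bodies. WT RAD21 peaks were also denser there, at 11.7 per Mb against 8.03. Of the 24, 4 were called in ΔCTCF/ΔMAZ, where 7.90% of all members were. Fgfr2, whose annotated span runs across many other genes, accounts for 9 of the 24 and for 2 of the 4. Etv5, an ETS factor downstream of FGF, held 6 in 58.4 kb, of which the strongest had 6.38 in ΔCTCF and 5.39 in ΔCTCF/ΔMAZ, and it had 0 RAD21 peaks in WT. Lifr, the LIF receptor gene, held 2 with 6.02 and 3.28, both in ΔCTCF only. Lif itself held 1 in its 3′ UTR, and its fold enrichment was 4.01 in ΔCTCF, 4.92 after loss of MAZ and 5.01 after loss of both.

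The 3 TET genes, which encode the enzymes that oxidise methylcytosine, held all 8 members of the DNA methylation list of 12 genes. Tet1 held 4, with fold enrichments of 3.67 to 4.80, Tet2 held 3, with 4.05 to 5.48, and Tet3 held 1 of 4.29. None was called in ΔCTCF/ΔMAZ, where 7.90% of all members were. In ΔMAZ 1 each in Tet1 and Tet2 was called, where 8.89% of all members were. With 8 members, neither count can be told apart from those shares. The 12 genes held 0 WT RAD21 gene-body peaks, against a density of 8.03 per Mb overall.

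The other lists held fewer members per Mb than the pluripotency and DNA methylation lists (22.3 and 12.1). Polycomb and trithorax genes held 7 in 6 of 20 genes, or 6.01 per Mb, the strongest in Cbx7 (5.003), a chromodomain subunit. Of the long neuronal and adhesion genes, with a median length of 1574 kb, 14 of 21 (66.7%, 45.4–82.8) hosted 40 members, where 43.1% of genes with over 300 kb of eligible sequence hosted one. Their density was 1.23 per Mb, against 1.70 in those genes. Chromatin remodeller genes hosted in 2 of 16 (Arid1b, strongest 5.48, and Chd2), TGF-beta and BMP genes in 2 of 23 (Acvr1b, 3.53, and Tgfbr2), and glycolysis genes in 1 of 13 (Eno1, 5.24, over a WT CTCF peak). The intervals of these shares, 3.50–36.02%, 2.42–26.8% and 1.37–33.3% in that order, all include the 8.47% of all protein-coding genes. The densities were 3.07, 2.04 and 2.73 members per Mb, against 2.57 overall. Counts in lists of this size are small, and the lists were drawn up with earlier results of these data known.

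The Ctcf gene stood apart among the cohesin regulators. It held 5 members, with fold enrichments of 3.80 to 5.28, all with the summit in a coding exon, 4 over WT CTCF peaks and 4 over WT MAZ peaks. Stag1, a cohesin subunit gene, held the only other member of that list of 17. Over all 12 lists, 61 peaks lay in the body of Ctcf more than 1 kb from a start, in 10 of the lists, and all 61 summits were in coding exons, which make up 5.19% of those bases. CTCF lists held 6 to 10 of them, also after auxin, RAD21 lists 2 to 8, and MAZ lists 7 in WT, 3 in ΔCTCF and 0 in both ΔMAZ conditions. No other host had more than 2 members in coding exons. The gene is the one that carries the degron tag in these cells. The origin of the exonic reads was not tested, and without these 5 members 7.91% of 2919 were called in ΔCTCF/ΔMAZ.

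Members were richer in G and C than their surroundings. The window of 100 bp to either side of the summit had a mean GC content of 50.5%, against 45.5% in windows 1 kb to either side and 42.5% at gene-body bases taken every 5000. Gene-body peaks with MAZ had 56.7%. The summit fell in repeat-masked sequence in 17.0% of members, 24.4% of windows beside them and 28.7% of gene-body bases.

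The KLF4 string was the most frequent of the 14 in members. This string, GGGTGTGG, bound by KLF4 and its relatives, was present in 224 members (7.66%, 6.75–8.68), in 1.73% of windows beside them, 1.27% of gene-body windows and 2.04% of retained gene-body peaks. Members exceeded their flanks by 5.93 percentage points (4.95–7.00). It was spread evenly over the window, in 1.71% of members within 20 bp of the summit and 1.61% at 80 to 100 bp.

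The other pluripotency strings were also more frequent than beside the members. The ESRRB string TCAAGGTCA was in 2.22% against 0.718%, the SOX2 string ACAATGG in 6.09% against 2.51%, and the OCT4 octamer ATGCAAAT in 2.67% against 1.27%. Retained gene-body peaks held these 3 strings in 0.658%, 2.87% and 1.18% of cases. So were the TEAD string ACATTCC (6.22% against 2.96%), the AP-1 string TGACTCA (5.75% against 3.73%) and the ETS string CCGGAAG (1.95% against 0.906%). Members differed from intergenic peaks re-localized without MAZ by −1.58 points for the SOX2 string (−2.87 to −0.30) and −0.94 for the OCT4 octamer (−1.83 to −0.05). For the KLF4 string they were 1.71 points above those peaks (0.44–3.00), and for the AP-1 string 1.26 points (0.14–2.39). Members and flanks differ in GC content as well, which bears on any GC-rich string.

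Both CTCF strings were less frequent in members than in retained gene-body peaks. The CTCF core string AGGTGGC was in 4.38% of members, 20.05% of retained peaks and 2.84% of windows beside the members, from which members differed by 1.54 points (0.72–2.43). The other core string, AGGGGGC, was in 2.94% of members, 17.9% of retained peaks and 2.33% of windows beside the members, a difference of 0.62 points (−0.08 to 1.38). The MAZ core string GGGGAGGG was in 4.48% of members and 3.90% of windows beside them, a difference of 0.58 points (−0.29 to 1.52). The ZNF263 string GGAGGAGG was in 3.93% against 2.86%, and the E-box CACGTG in 3.69% against 2.86%. The YY1 string AAGATGGC was less frequent, at 0.650% against 1.73%, and the NRF1 string GCGCATGCG was in 6 members. Each string was searched on both strands, the CTCF and MAZ strings can share letters where they meet, and a match describes letters, not a bound site.

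**Figure D5:**
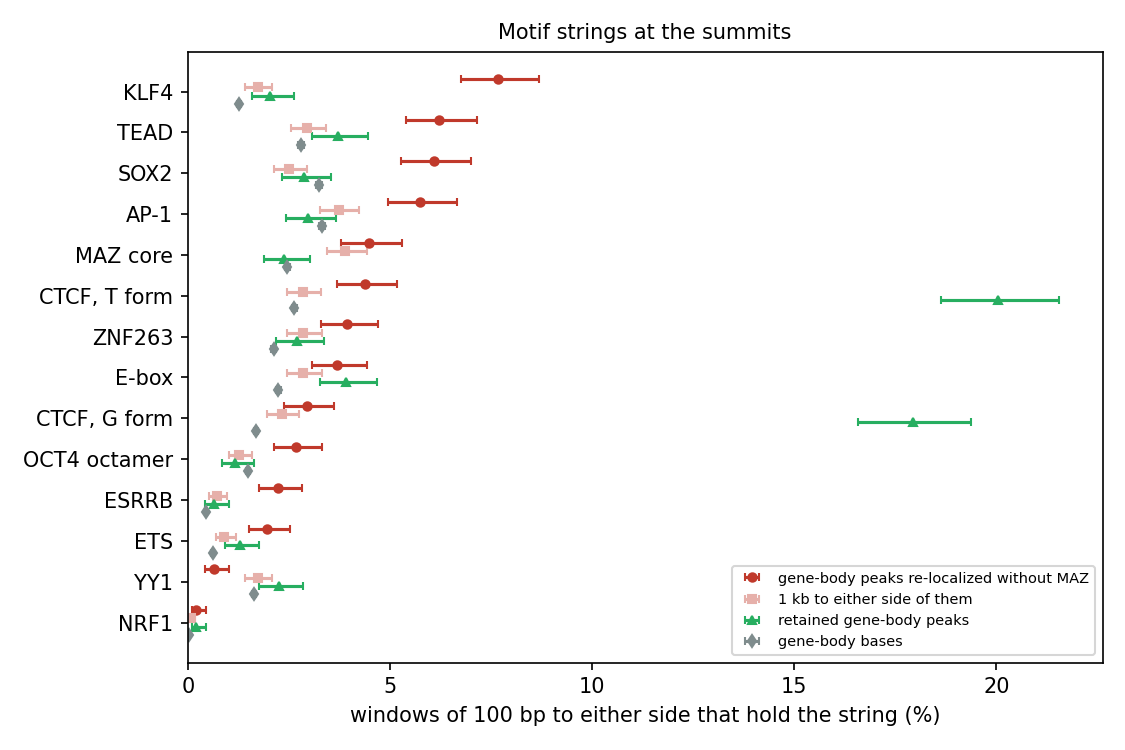
Share of windows (100 bp to either side of a summit or base) that hold each of 14 motif strings (x axis, percent, with 95% Wilson intervals) at members, in windows 1 kb to either side, at retained gene-body peaks and at gene-body bases. KLF4 is highest at members, 7.66% against 1.73% beside them, and both CTCF strings are highest at retained peaks.

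The KLF4 string also went with fate. Of the 224 members with it, 6 (2.68%, 1.23–5.72) were called in ΔCTCF/ΔMAZ, against 225 of the other 2700 (8.33%, 7.35–9.44), although the median fold enrichment in ΔCTCF was 4.29 in both. The difference was −5.65 points (−7.47 to −2.46), and the odds ratio within strength groups was 0.28 (0.12–0.66). In ΔMAZ 7.14% and 9.04% were called, a difference of −1.89 points (−4.82 to 2.37). The ZNF263 string gave −5.51 points in ΔCTCF/ΔMAZ (−7.53 to −0.63), with an odds ratio of 0.34 (0.10–1.08), and the TEAD string 3.88 points (−0.13 to 9.42). These comparisons were made over 14 strings and their intervals are not adjusted for that number.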

How the data were processed

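The ChIP-seq reads were mapped to mm10 with Bowtie2, filtered and cleared of PCR duplicates with SAMtools, and narrow peaks were called with MACS by the authors, per library. The input control was not given in the sources used here. The deposited lists hold, per peak, a score, the fold enrichment, −log10 p, −log10 q and the summit offset. Fold enrichment is the ratio of summit pileup to background, with a pseudocount added to both. Of 20 samples, 12 have a list, and 8 were not analysed here.

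Members were found by overlap of 1 bp and by the summit's place in GENCODE vM21 basic. The host was the longest protein-coding gene over the summit, or else the longest other gene. Pileups were recovered from fold enrichment and −log10 p for 100% of solved RAD21 peaks (tolerance 0.001), depth from the lowest background and the smallest peak width, and thinning used exact binomial probabilities. Scripts were tested on simulated data. Shares have 95% Wilson intervals and differences Newcombe intervals, with no p-values. Sequence came from RefSeq's GRCm38.p6, the mm10 assembly. Python 3.11.15, pandas 2.3.3, scipy 1.17.1 and bedtools 2.31.1 were used.

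Genes named are the 10 strongest members, the 5 strongest called and not called in ΔCTCF/ΔMAZ, the 5 strongest near a 3′ end, the 8 hosts with most members, the strongest member of each gene list and those nearest the 1 kb limit. Some genes that this rule takes are not reported here. Lncenc1, further list genes and the KLF4 examples were chosen after their values were seen. The members and lists were chosen with earlier results of these data known.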

Additional observations from a re-analysis of the deposited data

How the results depend on the processing

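The alternatives that changed the overlap, the strength limit, the promoter distance or the annotation left 1551 to 3197 members, and 32 of 45 values recomputed under them stayed within their interval or 1.5-fold limit. With reciprocal overlap of 50%, 2.00% of members overlapped WT MAZ, 6.44% were called in ΔMAZ and 5.41% in ΔCTCF/ΔMAZ. With gaps of up to 500 bp, 3.64% overlapped WT CTCF and 9.07% were called in ΔCTCF/ΔMAZ. At a −log10 q of at least 5, 1551 members remained, with 7.61% near a 3′ end, 4.13% over WT CTCF, 12.5% called in ΔMAZ and 11.5% in ΔCTCF/ΔMAZ. At 2500 bp from every start, 89.1% were intronic and 7.46% near a 3′ end, and with protein-coding genes alone 6.58% were near one. The 3′ share was 4.92% at 500 bp and 17.6% at 2500 bp. Thinning gave 53.8% and 24.0% in place of the 7.90% called in ΔCTCF/ΔMAZ.

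With the 6400 strongest peaks of each RAD21 list the set was largely another one: 851 peaks, of which 333 were among the 2924, with a median fold enrichment of 6.67, 89.7% intronic, 49.9% over WT CTCF, 17.98% called in ΔMAZ and 42.3% in ΔCTCF/ΔMAZ, a difference of 1.80 points (−2.50 to 6.11) from intergenic peaks. This setting drops the weaker WT peaks, so that retained peaks enter. Leaving out the Ctcf gene, an alternative chosen after seeing the data, moved none of the 5 values recomputed beyond its limit. With 1 list per group no library could be left out. No paired analysis was possible because each antibody and condition has 1 list. Depth limits every statement on peaks not called.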
